A study of Mus musculus with 14 samples.

Results

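The 9 genes Atoh1, Neurog1, Neurog2, Neurog3, Neurod1, Neurod2, Olig1, Olig2 and Olig3 encode basic helix-loop-helix (bHLH) transcription factors of the developing nervous system. They were taken by gene symbol from lists of chromatin regions that differed in accessibility between groups of mouse embryos, and a gene with no line in any list was not taken up. They account for 27 of the 10679 lines, each of which pairs a region with a gene, and for 9 of the 6686 genes named in the lists. The assay was ATAC-seq, which reads accessibility from the sites where Tn5 transposase inserts sequencing adapters into open chromatin. The cells were erythro-myeloid progenitors, a yolk sac population from which red and myeloid cells arise, sorted at E10.5 from C57BL/6 embryos, with 500 cells a sample. Every embryo carried Ezh2fl/fl, the floxed form of the gene for the methyltransferase of Polycomb repressive complex PRC2.

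There were 5 Tie2 KO samples, whose embryos also carried Tie2-CreTg/+, and 3 Vav KO samples, with Vav-CreTg/+. The 3 Tie2 WT samples came from embryos without the Tie2-Cre transgene. The 3 Vav WT samples, from embryos without the Vav-Cre transgene, enter no list. Tie2 (Tek) regulatory sequence drives Cre in endothelial cells and in their blood progeny, and Vav regulatory sequence drives it in blood cells. Vav KO was set against Tie2 WT, a control without that transgene from the Tie2 line, so the effects of line and of genotype cannot be told apart there. Tie2 KO against Vav KO sets levels of 2 knockout groups side by side, in which driver, line and time of deletion cannot be told apart, and no list compares the effect of Ezh2 loss between the drivers. Pooling of embryos and the surface markers of the sort are points not given in the sources used here.

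Proneural bHLH factors bind DNA together with broadly expressed E proteins at the E-box, a short motif, and switch on the genes that turn a dividing neural progenitor into a neuron. Hes and Hey factors act downstream of Notch and hold them in check, and Id proteins block them by taking up their E protein partners. In cells outside the nervous system the start sites of such genes are classic targets of PRC2, which marks them with methylated lysine 27 of histone H3 and keeps them silent.

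All 9 genes lay near a region that was more accessible in Tie2 KO relative to Tie2 WT, and all 9 lay near a region more accessible in Tie2 KO than in Vav KO. The corresponding shares of all protein-coding genes were 11.5% and 11.1%. No gene of the set lay near a lower region, while 2.51% of all protein-coding genes did so in Tie2 KO against Tie2 WT, 6.35% in Tie2 KO against Vav KO and 2.59% in Vav KO against Tie2 WT. The count of 9 out of 9 follows in part from how the genes were chosen, since genes without a line were left out. A fuller list held 24 neural bHLH genes and family relatives, among them Nhlh2 and Bhlhe22, and it includes the 9 genes. Of the 24, 12 (50%) lay near a region higher in Tie2 KO relative to Tie2 WT. Near one higher in Tie2 KO than in Vav KO there were 16 (66.7%). The 15 genes outside the set gave 3 (20%) and 7 (46.7%). In Vav KO against Tie2 WT the lists hold 2 of the 9 genes, Neurog2 and Olig3, both near a higher region (22.2%, against 5.29% of all protein-coding genes). The other 7 have no line in that comparison, which does not show that they were alike in Vav KO and Tie2 WT.

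Each called region carries the authors' log2 fold change and their adjusted p-value, with no value per sample, so the spread between embryos cannot be shown. A region is listed only if it covers a gene start or ends within 5 kb upstream of it. Coordinates are in mm10. Depth per sample is unknown. A region covered the start of 7 of the 9 genes in Tie2 KO against Tie2 WT, against 7.1% of all protein-coding genes, and of 7 in Tie2 KO against Vav KO, against 5.42%. These shares of all genes are not a like measure, since the 9 genes were chosen for having a line. Among protein-coding genes near a higher region, the start was covered in 1555 of 2529 against Tie2 WT and in 1187 of 2425 against Vav KO. No start of the 9 was covered in Vav KO against Tie2 WT, where 0.881% of all protein-coding genes had one covered.

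**Figure D1:**
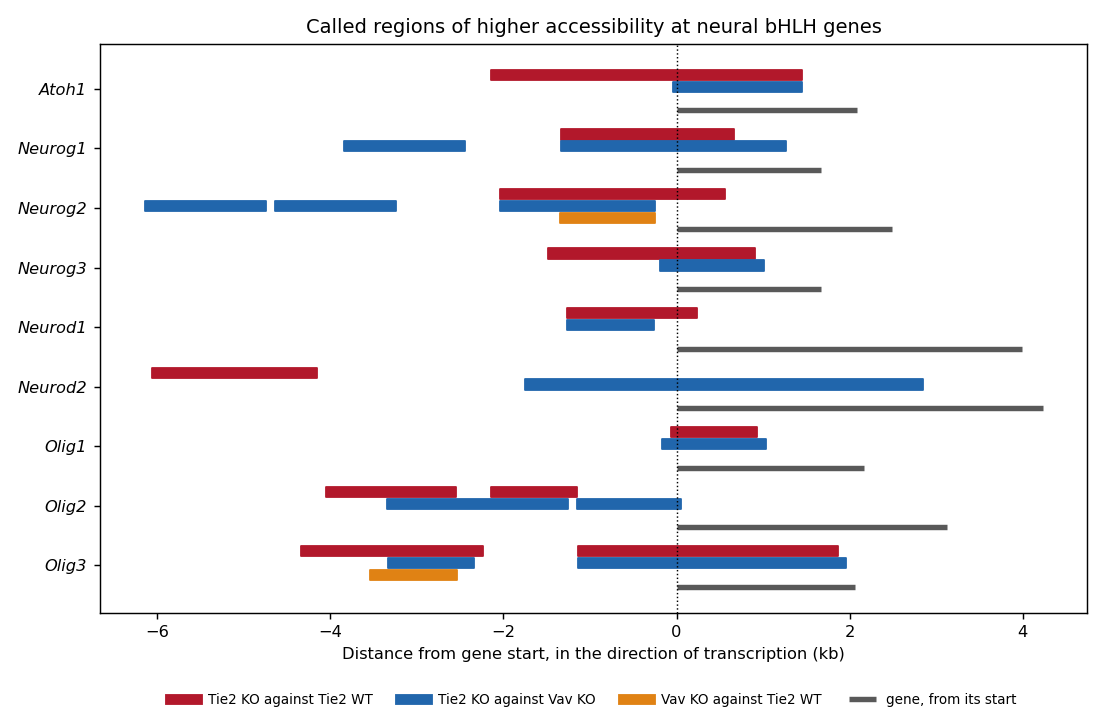
Called regions of higher accessibility at the 9 genes, drawn to scale by their distance in kb from the gene start in the direction of transcription, with 1 colour for each comparison and the gene in grey below. A region covers the start of 7 of the 9 genes in Tie2 KO against Tie2 WT and of 7 in Tie2 KO against Vav KO, and of none in Vav KO against Tie2 WT.

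The promoters of these genes differ widely in their content of CG dinucleotides, the feature of CpG islands, where PRC2 is often found in mammals. RefSeq sequences of assembly GRCm38.p6, which shares its coordinates with mm10, were matched for 8 of the 9 genes, all but Olig1. In the 250 bases before the start the 8 genes held 4 to 29 CG dinucleotides with a median of 16. The median was 6 for all 32851 RefSeq promoters and 10 for the 21263 of protein-coding genes. It was 13 for promoters of other genes whose start lay under a region higher in Tie2 KO relative to Tie2 WT. The 2 ends of that range, Neurog1 on chr13:56252181-56252430 (minus strand) and Olig3 on chr10:19356289-19356538 (plus strand), are shown 5′ to 3′ with each CG in capitals.
Neurog1: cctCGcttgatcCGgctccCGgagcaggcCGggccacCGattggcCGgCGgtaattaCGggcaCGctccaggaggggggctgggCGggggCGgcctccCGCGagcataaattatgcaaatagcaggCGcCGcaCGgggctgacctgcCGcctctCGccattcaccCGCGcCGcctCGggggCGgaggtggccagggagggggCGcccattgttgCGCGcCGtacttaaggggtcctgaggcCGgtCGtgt
Olig3: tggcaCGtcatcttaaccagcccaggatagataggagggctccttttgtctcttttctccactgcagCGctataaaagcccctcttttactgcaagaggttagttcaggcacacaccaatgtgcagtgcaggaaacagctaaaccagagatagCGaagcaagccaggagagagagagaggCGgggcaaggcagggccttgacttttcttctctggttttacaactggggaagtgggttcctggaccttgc

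Neurog1 had 29 CG dinucleotides there, more than 93.2% of all promoters, and Olig3 had 4, more than 37.8%. Both promoters lay inside a region higher in Tie2 KO relative to Tie2 WT and inside another higher in Tie2 KO than in Vav KO. Relative to Tie2 WT, the log2 fold changes of these regions in the authors' deposited table were 1.30 at Neurog1 and 1.23 at Olig3, the promoters richest and poorest in CG among the 8. A relation between CG content and fold change was not tested.

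**Figure D2:**
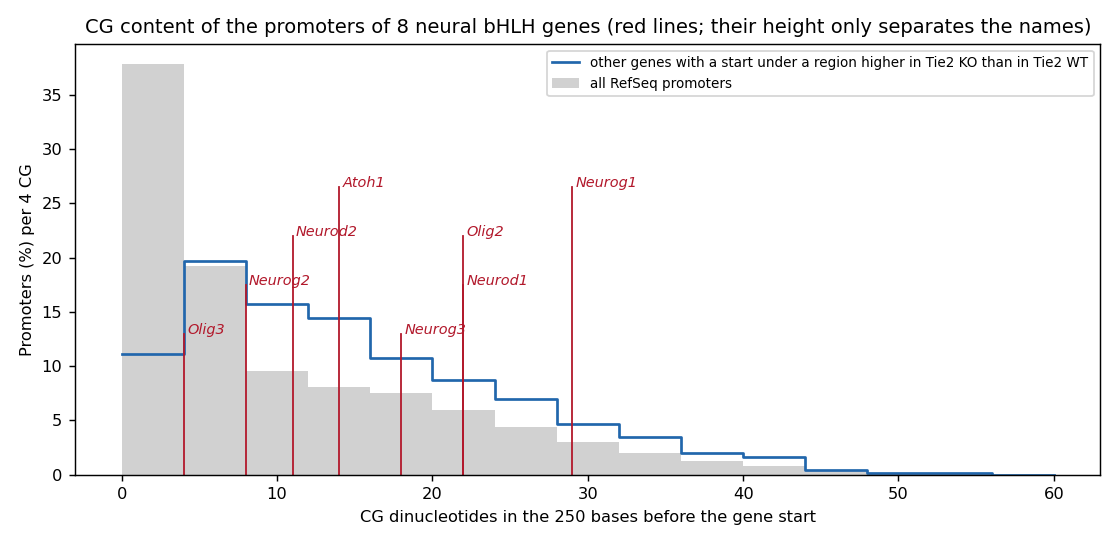
Number of CG dinucleotides in the 250 bases before the gene start for 8 of the genes (red lines), for all RefSeq promoters (grey bars) and for other genes whose start lay under a region higher in Tie2 KO relative to Tie2 WT (blue line). The y axis gives the percent of promoters in bins of 4 CG, and the 8 genes spread from 4 (Olig3) to 29 (Neurog1).

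E-boxes of 3 kinds bound by bHLH factors were searched in the same 250 bases on both strands, as CAGCTG (its own reverse complement), as CAGATG with its complement CATCTG, and as CACGTG (its own reverse complement). A match was found in 2 of the 8 promoters (25%), against 30.1% of all promoters, and each of the 2 held a single match, so none overlapped. Neurog3 held CAGCTG, its first base 165 bases before the start, as 13% of all promoters do, and Neurod2 held CAGATG, its first base 118 bases before it, as 14.4% of all promoters hold one of that pair. None of the 8 held CACGTG, present in 6.02% of all promoters. The windows are Neurog3 on chr10:62132840-62133089 (plus strand) and Neurod2 on chr11:98329646-98329895 (minus strand), shown 5′ to 3′ with the E-box in capitals because these are the matches found.
Neurog3: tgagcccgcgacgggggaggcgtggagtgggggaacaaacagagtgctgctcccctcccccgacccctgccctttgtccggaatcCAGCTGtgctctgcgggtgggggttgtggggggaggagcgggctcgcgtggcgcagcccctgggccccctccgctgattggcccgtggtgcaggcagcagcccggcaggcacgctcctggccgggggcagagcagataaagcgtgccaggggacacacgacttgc
Neurod2: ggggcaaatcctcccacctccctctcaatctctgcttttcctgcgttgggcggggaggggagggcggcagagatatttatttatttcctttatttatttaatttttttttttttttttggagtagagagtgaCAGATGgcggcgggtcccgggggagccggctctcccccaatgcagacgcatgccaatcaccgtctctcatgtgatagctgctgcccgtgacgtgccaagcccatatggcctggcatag

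Atoh1, Neurog1 and Neurog2 are proneural genes. Atoh1 specifies cerebellar granule neurons, dorsal spinal interneurons and the hair cells of the inner ear. At Atoh1 the region on chr6:64727002-64730600, which reached from 2144 bp before the gene start to 1454 bp behind it, had a log2 fold change of 1.01 in Tie2 KO against Tie2 WT (adjusted p = 1.82e-06 in the authors' deposited table). Against Vav KO, the authors' deposited table gives the region chr6:64729102-64730600 a log2 fold change of 0.75 with an adjusted p of 0.000104. Both ended at the same base, but the region called against Vav KO started only 44 bp before the gene start, so the upstream part of the wide region was called in the comparison with Tie2 WT alone. At 3599 bp the region against Tie2 WT was the widest of the 11 regions of that comparison, whose median was 1999 bp against 1599 bp for all 2959 higher regions.

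Neurog1 drives the formation of sensory neurons of the cranial and dorsal root ganglia. The region over its start on chr13:56251502-56253500 had a log2 fold change of 1.30 in Tie2 KO against Tie2 WT (adjusted p = 2.14e-07 in the authors' deposited table). Against Vav KO the authors' deposited table has the region chr13:56250902-56253500, with a log2 fold change of 1.16 and an adjusted p of 2.04e-06. It began at the same upstream base and ran further into the gene. A further region on chr13:56254602-56256000, lying 2438 bp upstream, was higher in Tie2 KO than in Vav KO by a log2 fold change of 1.43 (adjusted p = 0.0127 in the authors' deposited table). That is the highest adjusted p of the 27 lines. Beyond the other end of the gene the lists pair a region with 4930550C17Rik. In the authors' deposited table it was higher by 1.81 in Tie2 KO against Tie2 WT, 298 bp past the end of Neurog1, and by 2.65 in Tie2 KO against Vav KO, 598 bp past it. These regions are not counted among those of Neurog1, but they are the nearest called ones on that side.

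Neurog2 promotes the formation of cortical, spinal and sensory neurons, and it shares with Olig3 the largest number of called regions in the set. Its region over the start on chr3:127631102-127633700 had a log2 fold change of 1.02 in Tie2 KO against Tie2 WT (adjusted p = 2.04e-07 in the authors' deposited table), the lowest adjusted p of the set. The comparison with Vav KO holds 3 regions in the authors' deposited table, all upstream of the start. The nearest, chr3:127631102-127632900, ended 244 bp before the start with a log2 fold change of 0.80 (adjusted p = 7.73e-06 in the authors' deposited table). The others lay 3244 bp upstream, at 1.22 (adjusted p = 0.000989 in the authors' deposited table), and 4744 bp upstream, at 1.31 (adjusted p = 8.46e-06 in the authors' deposited table). These 2 distant regions have no counterpart in the comparison with Tie2 WT. In Vav KO against Tie2 WT the region chr3:127631802-127632900, inside the wide region and also ending 244 bp before the start, was higher by 0.90 (adjusted p = 0.000339 in the authors' deposited table).

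Neurog3 is the proneural factor that specifies endocrine cells of the pancreas and gut. The region chr10:62131602-62134000, over its start, had a log2 fold change of 1.64 in Tie2 KO against Tie2 WT (adjusted p = 1.18e-06 in the authors' deposited table). The authors' deposited table gives the region chr10:62132902-62134100 a log2 fold change of 1.52 in Tie2 KO against Vav KO, with an adjusted p of 7.83e-05. Among regions over a gene start, these are the largest values of the set in both comparisons. The E-box of the printed promoter begins 165 bases before the start, inside the first region, which reached 1488 bp upstream, and inside the second, which reached 188 bp upstream.

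Neurod1 and Neurod2 act after the proneural genes, in neurons that have left the cell cycle, and Neurod1 is also needed for pancreatic islet cells. At Neurod1 the authors' deposited table gives the region chr2:79456402-79457900, over the start, a log2 fold change of 1.42 in Tie2 KO against Tie2 WT (adjusted p = 7.68e-06). Against Vav KO the region chr2:79456902-79457900, which ended 265 bp before the start, was at 1.34 (adjusted p = 0.000184 in the authors' deposited table). Both regions are also paired with Cerkl, a gene expressed in the retina whose annotated start is equally near, so they cannot be assigned to Neurod1 alone. No region of the other 8 genes is shared with another gene.

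Neurod2 is the gene of the set where the comparisons named different places. The region higher in Tie2 KO relative to Tie2 WT, chr11:98333802-98335700, lay 4156 bp upstream and had a log2 fold change of 1.27 (adjusted p = 4.62e-06 in the authors' deposited table). The region higher in Tie2 KO than in Vav KO, chr11:98326802-98331400, covered the start and most of the gene, with a log2 fold change of 1.00 (adjusted p = 1.23e-05 in the authors' deposited table). At 4599 bp it was the widest of the 14 regions of that comparison, whose median was 1399 bp against 1299 bp for all 2873 higher regions. The regions did not overlap, and the E-box in the printed promoter lies in the second.

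Olig1 and Olig2 lie next to each other on chromosome 16, with their starts 44219 bp apart. Olig2 sets up motor neuron and oligodendrocyte progenitors of the spinal cord, and Olig1 acts in the maturation of oligodendrocytes. With each gene taken at its largest value, Olig1 had the smallest rise of the set against Tie2 WT. Over its start, the region chr16:91269702-91270700 had a log2 fold change of 0.78 in Tie2 KO against Tie2 WT (adjusted p = 0.000855 in the authors' deposited table). Against Vav KO the region chr16:91269602-91270800 was at 0.81 (adjusted p = 0.00011 in the authors' deposited table).

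At Olig2 the 2 regions higher in Tie2 KO relative to Tie2 WT both lay upstream of the start. The nearer, chr16:91223402-91224400 at 1149 bp, had a log2 fold change of 1.13 (adjusted p = 0.00106 in the authors' deposited table). The farther, chr16:91221502-91223000 at 2549 bp, was at 0.67 (adjusted p = 0.000177 in the authors' deposited table). Against Vav KO, a region on chr16:91222202-91224300, which bridged the gap between these, had a log2 fold change of 0.95 (adjusted p = 6.94e-06 in the authors' deposited table). Next to it the region chr16:91224402-91225600 reached 50 bp past the start and was at 0.59, the smallest value of the set (adjusted p = 0.000661 in the authors' deposited table).

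Olig3 marks dorsal progenitors of the hindbrain and spinal cord. It had the largest value of the 9 genes in both comparisons that involve Tie2 KO. In Vav KO against Tie2 WT, where only 2 of the 9 have a value, it had the larger. Each time the value came from a region upstream of the start. In Tie2 KO against Tie2 WT the upstream region chr10:19352202-19354300 had a log2 fold change of 1.67 (adjusted p = 1.1e-05 in the authors' deposited table). The region over the start, chr10:19355402-19358400, was at 1.23 (adjusted p = 9.22e-07 in the authors' deposited table). The upstream region chr10:19353202-19354200 was at 2.14 in Tie2 KO against Vav KO (adjusted p = 0.000428 in the authors' deposited table). The region over the start in that comparison, chr10:19355402-19358500, was at 1.32 (adjusted p = 1.04e-06 in the authors' deposited table) and covered nearly the whole gene. In Vav KO against Tie2 WT a region on chr10:19353002-19354000, at 2538 bp upstream, was higher by 1.27 (adjusted p = 0.00165 in the authors' deposited table). The stretch upstream was called in all 3 comparisons, and the start itself in both that involve Tie2 KO.

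**Figure D3:**
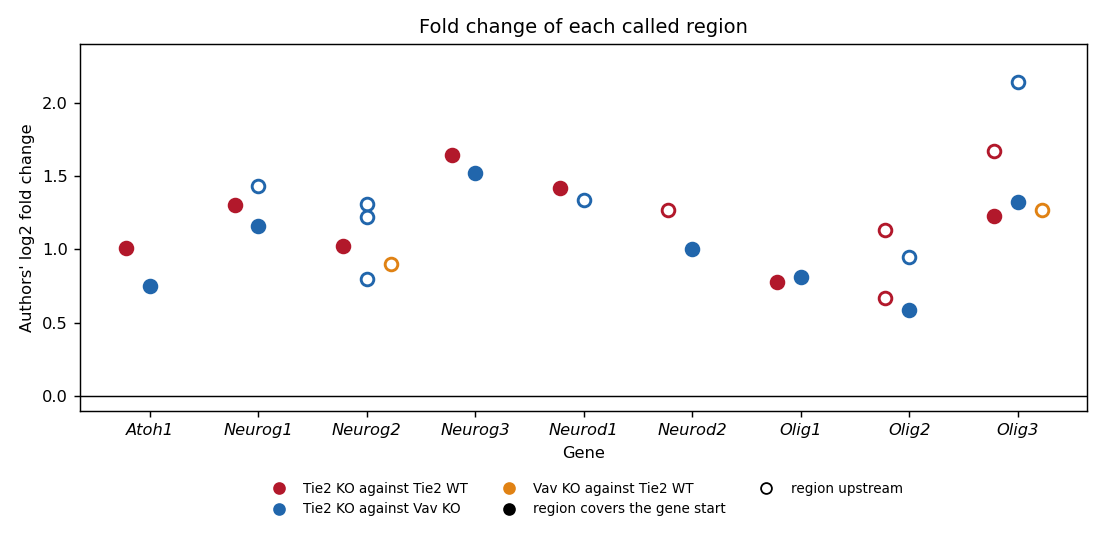
The authors' log2 fold change of each called region, by gene, with filled points for regions over the gene start and open points for regions upstream. In Tie2 KO against Tie2 WT values run from 0.67 to 1.67, in Tie2 KO against Vav KO from 0.59 to 2.14, and in Vav KO against Tie2 WT there are 2 values, 0.90 at Neurog2 and 1.27 at Olig3.

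Where a gene had both kinds of region, the upstream one had the larger fold change. This held for Olig3 against Tie2 WT, and for Neurog1, Olig2 and Olig3 against Vav KO, where the medians over the 3 genes in the authors' deposited table were 1.43 upstream and 1.16 over the start. It was also the common case among all protein-coding genes with both kinds of higher region. Against Tie2 WT the upstream region had the larger value in 136 of 198 genes (68.7%), and against Vav KO in 141 of 179 (78.8%). Regions over a start made up 7 of 11 against Tie2 WT (63.6%, against 55.6% of all higher regions) and 7 of 14 against Vav KO (50%, against 43.8%).

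Taking the largest value of each gene, the median log2 fold change in the authors' deposited table was 1.27 for the 9 genes in Tie2 KO against Tie2 WT, with a range from 0.78 to 1.67. The median of all 2529 protein-coding genes near a higher region was 1.04. Against Vav KO it was 1.31 for the 9 genes, from 0.75 to 2.14, and 1.16 for all 2425 genes. More than 1 higher region was called there at 44.4% of the 9 genes and at 10.3% of all genes. Against Tie2 WT these shares were 22.2% and 10.2%, so taking the largest value favours the set. Against Vav KO the median of the 9 genes was 1.11 with the mean over a gene's regions. For regions over the start it was 1.00, over the 7 genes that had one. No median of all genes is given here for either measure, so neither should be set against 1.16. For the 2 genes in Vav KO against Tie2 WT the median of the largest values was 1.08, and 1.35 for all 1159 genes. Of the 9 genes, 8 reached a log2 fold change of 1 against Tie2 WT (88.9%, against 53.7% of all genes near a higher region) and 6 against Vav KO (66.7%, against 65.3%). The comparisons with Tie2 WT and with Vav KO share the Tie2 KO samples, so the values of a gene in both are not independent.

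**Figure D4:**
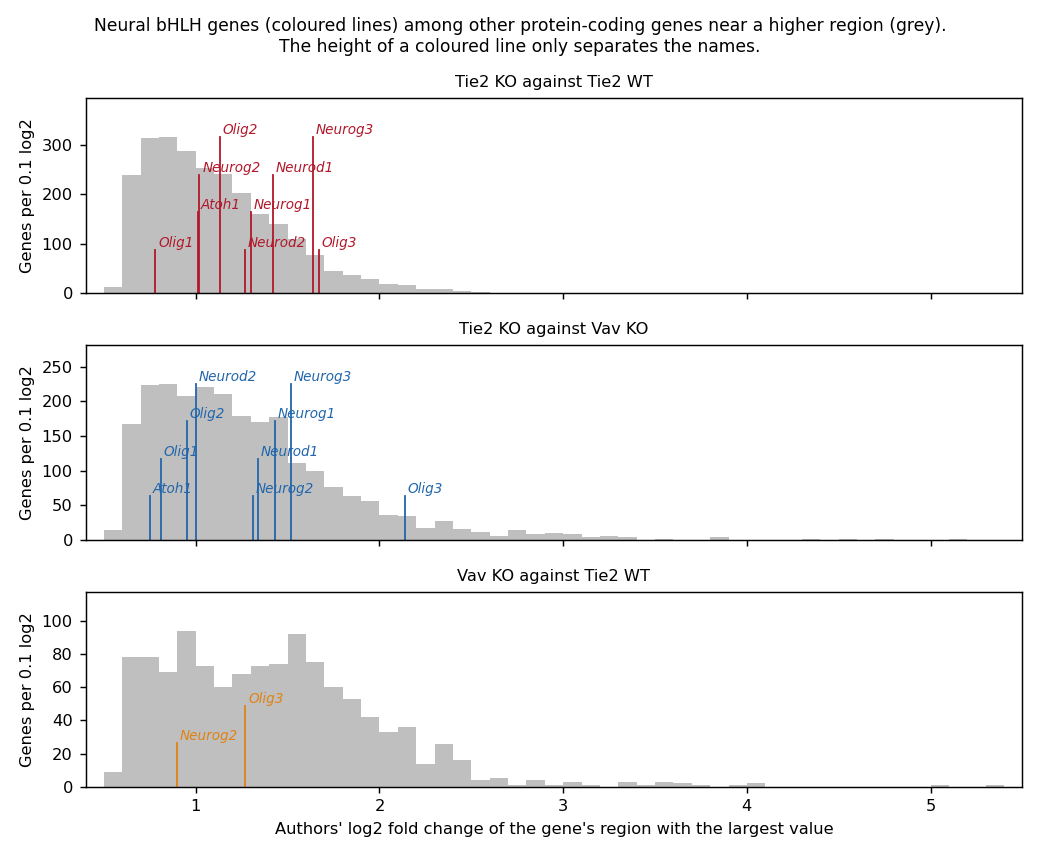
Distribution of the authors' log2 fold change over protein-coding genes near a higher region (grey, number of genes per 0.1 log2, each at its largest region) with the 9 genes as coloured lines, for the 3 comparisons from top to bottom. The neural bHLH genes lie from 0.78 to 1.67 in the top panel and from 0.75 to 2.14 in the middle panel, inside the bulk of the other genes, and far larger values occur at genes outside the set.

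By their pair of values against Tie2 WT and Vav KO, the genes closest to the medians of the set were Gpr26, C2cd4b, Prdm14 and Trp73, among 1381 other protein-coding genes higher in both. The measure was the straight-line distance between the 2 log2 fold changes, over those 2 comparisons only. In the authors' deposited table Gpr26 was at 1.28 and 1.33, C2cd4b at 1.28 and 1.28, Prdm14 at 1.26 and 1.34 and Trp73 at 1.24 and 1.34. None of these 4 has a line in Vav KO against Tie2 WT.

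Of 15 further genes, other neural bHLH factors and family relatives, the lists place 3 near a region higher in Tie2 KO relative to Tie2 WT (20%), 7 near one higher in Tie2 KO than in Vav KO (46.7%) and 2 near one higher in Vav KO than in Tie2 WT (13.3%), and none near a lower one. The shares of all protein-coding genes near such higher regions were 11.5%, 11.1% and 5.29%. In the authors' deposited table Bhlhe22, a factor of cortical and retinal neurons, was at 1.55, Bhlha9 at 1.42 and Ascl5 at 0.93 in Tie2 KO against Tie2 WT. Of these 3 only Bhlhe22 is known mainly for a neural role, since Bhlha9 acts in the limb bud and Ascl5 in tooth epithelium. Bhlhe22 and Ascl5 were also the ones higher in Vav KO than in Tie2 WT, at 1.26 and 0.82 in the authors' deposited table. Values of list genes, here and below, are those of the region with the largest change, which can lie upstream. Against Tie2 WT those of Bhlhe22 and Bhlha9 lay 3424 and 4569 bp upstream, and that of Ascl5 lay over the start. Bhlhe22 was at 0.94 over its start in the authors' deposited table.

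Among bHLH genes of muscle, mesoderm and other tissues, 10 of 22 lay near a region higher in Tie2 KO relative to Tie2 WT (45.5%) and 11 near one higher in Tie2 KO than in Vav KO (50%). Against Tie2 WT the authors' deposited table has Twist2, a factor of mesenchyme, at 2.15, the mesodermal gene Tcf21 at 1.62, Hand1, a regulator of heart and extraembryonic mesoderm, at 1.59, and Myod1, the muscle determination gene, at 1.45. Medians over the called genes in the authors' deposited table were 1.31 against Tie2 WT and 1.43 against Vav KO, beside 1.27 and 1.31 for the neural set. The lower one was Scx, a gene of tendon progenitors, at -1.03 in Tie2 KO against Vav KO in the authors' deposited table. Blood-related bHLH genes numbered 4 of 14 near a region higher in Tie2 KO relative to Tie2 WT (28.6%), namely Bhlhe41 at 1.19, Tfeb at 1.10, Tal2 at 0.80 and Bhlhe40 at 0.61 in the authors' deposited table. In Tie2 KO against Vav KO 1 of the 14 was higher (7.14%, against 11.1% of all protein-coding genes), Tal2 at 0.62 in the authors' deposited table, and in Vav KO against Tie2 WT 0 were. Tal1 and Lyl1, bHLH regulators of blood formation, have no line. Mycl was lower in Vav KO than in Tie2 WT, at -0.85 in the authors' deposited table.

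Of the partners and antagonists, the E protein genes Tcf3, Tcf4 and Tcf12 have no line. Among the 7 genes of E and Id proteins, Id2 and Id4 lay near a region higher in Tie2 KO relative to Tie2 WT, at 0.76 and 0.60 in the authors' deposited table, and Id2 near one higher in Tie2 KO than in Vav KO at 0.80 in the authors' deposited table. Hes and Hey repressor genes numbered 4 of 10 against Tie2 WT (40%), with Hey2 at 1.71, Hes1 at 1.54, Heyl at 0.76 and Hes2 at 0.74 in the authors' deposited table. The values of Hey2 and Hes1 lay 2418 and 3456 bp upstream, and those of Heyl and Hes2 over the start. Hes1 was at 0.91 over its start in the authors' deposited table. Against Vav KO 3 of 10 were higher (30%), and Hes3 was lower at -0.66 in the authors' deposited table.

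Notch ligand genes and genes switched on in neurons or glia numbered 14 of 34 near a region higher in Tie2 KO relative to Tie2 WT (41.2%) and 13 near one higher in Tie2 KO than in Vav KO (38.2%). The authors' deposited table for that comparison with Tie2 WT lists Stmn2, a microtubule regulator of neurons, at 1.82, Cspg4 at 1.42, Pdgfra, a receptor of oligodendrocyte progenitors and mesenchyme, at 1.17, and Ebf1, a factor of neurons and B cells, at 1.08. Stmn2 was also higher in Vav KO than in Tie2 WT, at 2.03 in the authors' deposited table. Pdgfra was lower there, at -1.57 in the authors' deposited table, and Rnd2 was lower in Tie2 KO than in Vav KO, at -0.94 in the authors' deposited table.

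**Figure D5:**
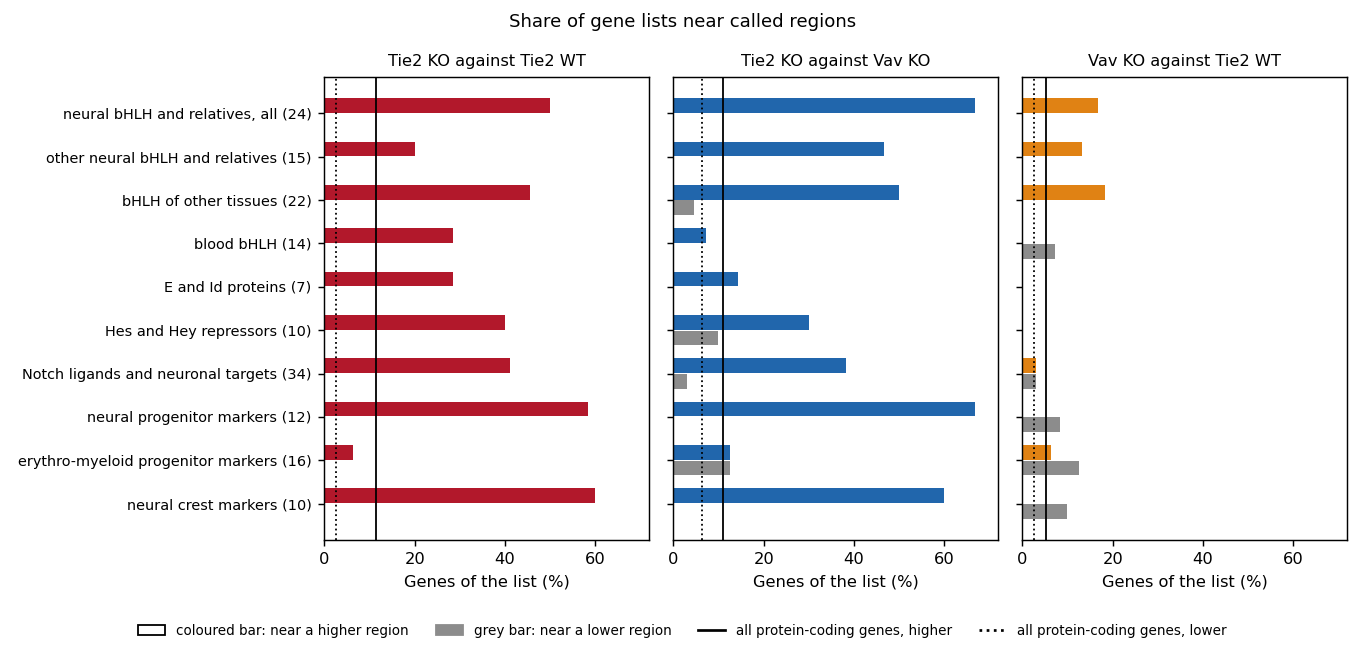
Percent of the genes of each list near a higher (coloured) or lower (grey) region in the 3 comparisons, with the number of genes in brackets and lines for the share of all protein-coding genes. The full list of neural bHLH genes and relatives reaches 50% in Tie2 KO against Tie2 WT and 66.7% in Tie2 KO against Vav KO. It includes the 9 genes, which were chosen for having a line, and its other 15 genes reach 20% and 46.7%. Markers of erythro-myeloid progenitors reach 6.25% and 12.5%, and all protein-coding genes 11.5% and 11.1%.

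Markers of neural progenitors and neural crest were also among the called genes. Of neural progenitor markers, 7 of 12 (58.3%) lay near a region higher in Tie2 KO relative to Tie2 WT and 8 (66.7%) near one higher in Tie2 KO than in Vav KO. In the authors' deposited table Otx2 was at 1.42, Msi1 at 1.40 and Sox1 at 1.04 against Tie2 WT. Of neural crest markers 6 of 10 (60%) were higher in each, among them Pax3 at 1.71, Tfap2a at 1.54 and Ngfr at 1.21 in the authors' deposited table for Tie2 KO against Tie2 WT. The values of Pax3 and Tfap2a lay 4565 and 2981 bp upstream, and that of Ngfr over the start. Pax3 was at 0.96 over its start in the authors' deposited table. In Vav KO against Tie2 WT none of either list was higher, against 5.29% of all protein-coding genes. With 12 and 10 genes, having none does not set these lists apart from that share. In the authors' deposited table for that comparison Pax6 was lower at -0.94 and the neural crest gene Foxd3 at -1.87. They were the only lower genes of their lists (8.33% and 10%, against 2.59% of all protein-coding genes). The part of such cells in the result was not tested, because the lists hold no level per sample, and the labelled cell type cannot be checked against its markers for the same reason.

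Of 16 erythro-myeloid progenitor markers, Tek was the only one near a region higher in Tie2 KO relative to Tie2 WT (6.25%, against 11.5% of all protein-coding genes). With 16 genes this count does not set the markers apart from that share. Tek was at 2.90 there in the authors' deposited table, and against Vav KO it was at 2.92 in the authors' deposited table. Tek is the gene whose regulatory sequence drives Tie2-Cre. Its region against Tie2 WT spanned 12899 bp, the largest width among all higher regions of that comparison. Tie2 KO embryos also carry Tek regulatory sequence in the transgene, and the part of transgene reads in these values was not tested. The region at Vav1, the gene of the other driver, was higher in Vav KO than in Tie2 WT, at 0.81 in the authors' deposited table. In Tie2 KO against Vav KO a region at Vav1 was lower, at -0.9 in the authors' deposited table. Vav KO embryos carry Vav regulatory sequence in their transgene, and the part of transgene reads in the Vav1 values was not tested either. The other called markers went both ways. In Vav KO against Tie2 WT, Cd93 and Gata2 were lower, at -1.45 and -1.55, and Csf1r was higher, at 0.92 in the authors' deposited table. In Tie2 KO against Vav KO, Cd34 and Csf1r were lower, at -1.09 and -1.33, and Gata2 was higher, at 0.92 in the authors' deposited table. Ezh2, the targeted gene, has 0 lines, so the lists give no check of its deletion.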

How the data were processed

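The files used are 6 lists of called regions, with higher and lower ones apart, from 3 comparisons of 14 ATAC-seq samples in 4 groups. The submitters' processing notes name HOMER 4.10, MACS2 2.1.2, Picard, SAMtools 1.3.1, Bowtie2, FastQC and mm10, without saying what each did. Not given in the sources used here were read shifting, duplicate handling, library scaling and the test. Per the file headers, each region has the authors' log2 fold change and adjusted p-value and, as other measures, its width and distance to the gene start in bp. Listed regions reached down to an absolute log2 fold change of 0.58 and up to an adjusted p-value of 0.0479. The abbreviations in the list names were taken to mean Tie2 KO, Vav KO and Tie2 WT.

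Genes were matched by identifier to the RefSeq table of GRCm38.p6 (10669 of 10679 lines), whose 21900 protein-coding genes are the background. Which genes or regions were tested is unknown, so shares describe the lists. A gene's value is its region with the largest absolute log2 fold change. Counts, medians and motif searches were made in Python 3.11.15 with pandas 2.3.3, and the counting was tested on simulated data. No test was added. The genes and lists were chosen with earlier results of these data known. Named genes are the 9, the targeted and driver genes, up to 4 per list with the largest change in Tie2 KO against Tie2 WT, every list gene near a lower region and the 4 closest genes. Other list genes, among them Nhlh2, Tal1, Lyl1 and the E protein genes, and the neighbours Cerkl and 4930550C17Rik, were named after their values were seen. Some genes that this rule picks are not reported here. A planned look at protein sequences was not made.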

Additional observations from a re-analysis of the deposited data

How the results depend on the processing

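The counts of 9 genes in Tie2 KO against Tie2 WT and 9 in Tie2 KO against Vav KO stayed between 6 and 9, and the counts of lower genes at 0, under the 6 alternatives tried: a stricter adjusted p, a log2 fold change of at least 1, regions over the start, regions within 2 kb, no regions of the smallest width and the nearest gene only. Their median log2 fold changes lay between 1.18 and 1.29 and between 1.00 and 1.39, also with the mean over a gene's regions. The count of 2 genes in Vav KO against Tie2 WT fell to 1 with a log2 fold change of at least 1, within 2 kb or without the smallest width, and to 0 for regions over the start, where no median could be given. Set against protein-coding genes with a line in any list, the background shares were 43.1% in Tie2 KO against Tie2 WT, 19.8% in Vav KO against Tie2 WT and 41.3% in Tie2 KO against Vav KO, a smaller denominator by construction. No paired analysis was possible because the lists hold no value per sample, and for the same reason no sample could be left out.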

Other observations

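The fold changes of the 3 comparisons did not add up where all of them called the same place. At Olig3 the upstream element was higher by 1.67 in Tie2 KO and by 1.27 in Vav KO, each against Tie2 WT, a difference of 0.40, while the direct value of Tie2 KO against Vav KO was 2.14 in the authors' deposited table. At Neurog2 the difference was 0.12 and the direct value 0.80 in the authors' deposited table. Over the lists 136 sets of 3 overlapping regions were found, none with the same edges in all 3 comparisons. The direct value and the difference were apart by more than 0.5 in 106 of them, with a median gap of 0.91, and had opposite signs in 24. Each value had to pass the authors' thresholds to be listed and refers to a region of its own edges, so values of a gene should not be subtracted across comparisons.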
